A study of Mus musculus with 16 samples.

Results

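The genes described here were the 85 measured genes whose symbols name a protein of the cytosolic ribosome, chosen by symbol alone: Rpl or Rps followed by a digit, or Rplp0, Rplp1 or Rplp2, without pseudogene names in -ps and without the Rps6k kinases. They were 85 of 37154 genes tested. Of 94 symbols in the RefSeq gene table that met the rule, 9 had no matched probe and were not analysed here: Rpl32l, Rpl32p, Rpl37rt, Rpl6l, Rps12l1, Rps23, Rps27rt, Rps3a2 and Rps3a3. All 85 members passed the intensity minimum, and none lacked a value on any array. RNA was measured on 16 one-colour Agilent arrays, 2 for each of 8 groups of cells differentiated from mouse embryonic stem (ES) cells. The Sp1+/+ cells came from the wild-type line E14, and the Sp1-/- cells from a line whose Sp1 alleles can make no more than a shortened protein that lacks the part that contacts DNA. All groups carry the strain label C57BL/6, and no drug or transgene distinguished them. Each genotype was represented by 1 ES line, so that a difference between genotypes is also a difference between lines. The populations were Flk1+ cells from embryoid bodies, and 3 fractions sorted from blast culture: hemogenic endothelium 1 (HE1, KIT+ Tie2+ CD41-), hemogenic endothelium 2 (HE2, KIT+ Tie2+ CD41+) and progenitors (KIT+ Tie2- CD41+).

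A ribosome consists of a large and a small subunit, each of which joins ribosomal RNA to a fixed set of proteins that are made in matching amounts. The genes of these proteins are expressed in every growing cell, have short GC-rich promoters, and are often used as references in expression studies, while partial loss of any of several of them in humans causes Diamond-Blackfan anemia, a failure of red cell production. Sp1 is a zinc finger factor that binds GC boxes, which many housekeeping promoters hold, and Sp3 and Sp4 recognise the same element. The question put to the data was whether these genes changed when Sp1 could no longer bind DNA, over 4 successive populations. By role the members were 43 large subunit proteins, 29 small subunit proteins and 3 stalk proteins (75 core proteins in all), 8 paralogs (Rpl3l, Rpl7l1, Rpl10l, Rpl22l1, Rpl36al, Rpl39l, Rps4l and Rps27l), and 2 genes that carry a matching symbol without being subunits, Rps19bp1, which encodes a protein that binds RPS19, and Rps23rg1, a retroposed copy of Rps23.

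RefSeq promoter windows (build GRCm38.p6) were at hand for 64 of the 85 members, or 75.3%, too few for a comparison of the whole list by GC content or by motif. The windows also reach a short way past the annotated start. In those 64 the GC box GGGCGG, searched on both strands, occurred in 38 (59.4%), against 35.9% of the 27025 genes with a window. The ETS motif CCGGAAG occurred in 24 (37.5%, against 9.12%), GATGGCGG, a YY1 motif, in 3 (4.69%, against 1.74%), and TATAAA in 6 (9.38%, against 14.2%). The bases before the annotated start site are shown for 6 members that the results turn on, with any of these motifs, on either strand, in capitals (CCGCCC is the GC box read from the other strand): Rplp0, the stalk protein and common reference gene (chr5:115559217-115559466, plus strand); Rps4x, the X-linked partner of Rps4l (chrX:102189392-102189641, minus strand); Rpl27 (chr11:101441995-101442244, plus strand) and Rps27l (chr9:66945836-66946085, plus strand), which were lower in Sp1-/- cells; Rps23rg1 (chr8:3567748-3567997, plus strand), which was higher; and Rpl7l1 (chr17:46782657-46782906, minus strand), which changed between stages.
Rplp0: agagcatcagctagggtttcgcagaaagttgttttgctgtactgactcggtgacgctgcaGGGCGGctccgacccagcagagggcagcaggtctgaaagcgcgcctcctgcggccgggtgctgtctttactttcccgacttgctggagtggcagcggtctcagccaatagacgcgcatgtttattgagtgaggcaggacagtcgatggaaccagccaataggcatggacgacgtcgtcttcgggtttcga
Rps4x: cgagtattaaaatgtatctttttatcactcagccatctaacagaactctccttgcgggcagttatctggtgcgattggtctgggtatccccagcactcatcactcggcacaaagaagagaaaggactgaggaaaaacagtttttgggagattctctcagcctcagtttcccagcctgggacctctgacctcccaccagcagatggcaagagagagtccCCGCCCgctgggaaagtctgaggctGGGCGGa
Rpl27: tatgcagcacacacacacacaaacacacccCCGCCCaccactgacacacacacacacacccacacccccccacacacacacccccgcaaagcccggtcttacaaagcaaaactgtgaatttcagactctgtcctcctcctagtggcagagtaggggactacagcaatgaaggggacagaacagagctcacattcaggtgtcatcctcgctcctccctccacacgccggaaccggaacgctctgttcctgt
Rps27l: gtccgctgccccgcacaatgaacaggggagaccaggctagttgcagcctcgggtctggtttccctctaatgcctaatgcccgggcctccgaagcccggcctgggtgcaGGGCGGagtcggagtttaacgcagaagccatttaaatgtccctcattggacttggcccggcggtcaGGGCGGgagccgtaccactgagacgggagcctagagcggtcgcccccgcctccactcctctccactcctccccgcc
Rps23rg1: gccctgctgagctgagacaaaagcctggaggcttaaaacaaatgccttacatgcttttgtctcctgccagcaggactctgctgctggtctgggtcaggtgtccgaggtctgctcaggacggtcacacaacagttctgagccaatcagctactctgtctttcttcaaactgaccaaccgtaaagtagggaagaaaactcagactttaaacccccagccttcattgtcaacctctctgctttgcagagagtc
Rpl7l1: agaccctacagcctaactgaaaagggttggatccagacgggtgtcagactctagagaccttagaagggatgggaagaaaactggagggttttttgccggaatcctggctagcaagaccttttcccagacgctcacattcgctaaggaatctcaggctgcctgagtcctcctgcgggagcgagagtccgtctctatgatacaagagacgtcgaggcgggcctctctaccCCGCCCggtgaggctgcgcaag
The Rps4x stretch held 2 GC boxes, the nearer of them starting 7 bases before the annotated start, and the Rps27l stretch also held 2. Rplp0, Rpl27 and Rpl7l1 held 1 each, and Rps23rg1 held none. Rps4l had no window. A match describes these letters only and is not a binding site.

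Between 67.0 and 77.1% of spots were well above background on each array, and no spot was saturated. Sp1 itself was 4.84 to 9.71-fold lower in the Sp1-/- cells of the 4 populations (adjusted p at most 5.98e-05, limma), and a part of the signal remained, on a probe whose place relative to the truncation is not known. Endothelial markers rose from Flk1+ cells to HE1 in both genotypes (7 of 8 passed in each). Itga2b, which encodes CD41, read 7.37 to 8.30 in Flk1+ cells, 10.60 to 11.43 in HE1 and 11.41 to 12.68 in the CD41+ fractions over both genotypes, and Tek, which encodes Tie2, was highest in HE1. In Sp1-/- progenitors 4 of 9 erythroid markers were higher (median log2 change 2.235), against 6.17% of all genes. There 2 of 8 endothelial markers (median -1.57) and 5 of 9 muscle and mesenchyme markers (median -2.575) were lower, against 6.93% of all genes. The part of these shifts in the results below was not tested. The 8 Sp1+/+ samples shared 1 slide and the 8 Sp1-/- samples the other, while each population kept 1 column of both slides. Slide and genotype therefore cannot be told apart, nor can slide column and population. P-values measure the spread between 2 samples a group, which may be in part technical.

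Core ribosomal proteins held nearly the same signal in every sample. The median over the 75 core genes lay between 17.83 and 17.97 on the log2 scale on all 16 arrays. Between genes, the range of the 8 group means had a median of 0.21 on the log2 scale, against 0.64 for all genes tested. It exceeded 1 in 0 of 75 core genes but in 28.4% of all genes. Most of those genes are far dimmer, and the range was not summarised for genes as bright as the core, so evenness is not shown to be particular to them. Rplp0 and Rpl41 had the narrowest range, 0.05 each, and Rpl21 the widest among core genes, 0.81. Among all members Rps4l stood at the top with a range of 1.56, followed by Rpl7l1 with 0.96.

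The spread of the core median differed between scales, and the range of each gene was computed on the deposited scale alone. The deposited values were quantile normalized, which gives every array the same distribution, and 55 to 61 of the 75 core genes fell among the brightest 1% of genes on each array. The highest gene value was 18.99 on each of the 16 arrays, and Rplp0 lay between 18.91 and 18.99 throughout, at this ceiling. When the scanner's processed signal was instead scaled to each array's 75th percentile, the core median ranged from 17.51 to 18.18. The lowest of these was Sp1-/- Flk1+ replicate 2, and the 2 highest were the Sp1-/- progenitor arrays. On that scale the median change of the members between genotypes was -0.17 in Flk1+ cells, where that of all genes was -0.013, and 0.233 in progenitors, where it was 0.087. For HE1 it was 0.122 (all genes 0.188) and for HE2 -0.032 (all genes 0.079). The bright end of all genes moved on that scale too. The level exceeded by the brightest 1% was 17.429 and 17.457 in Sp1+/+ Flk1+ cells, and 17.445 and 17.151 in Sp1-/- ones. In progenitors it was 17.39 and 17.382 against 17.698 and 17.528. In HE1 it was 17.168 and 17.189 against 17.29 and 17.296, and in HE2 17.565 and 17.347 against 17.357 and 17.445. Whether the members moved apart from other bright genes was not tested. The values and tests that follow are on the deposited scale unless another is named.

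**Figure D1:**
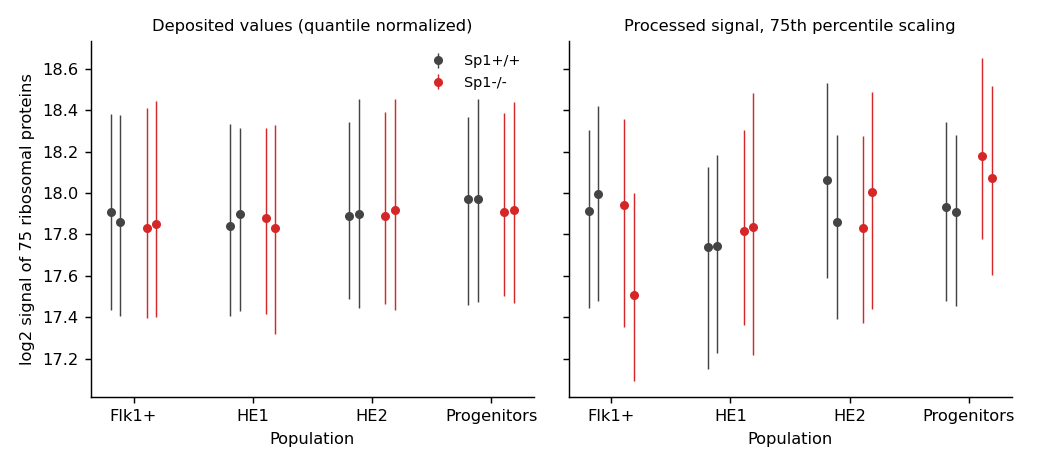
Median (points) and interquartile range (bars) of the log2 signal of 75 core ribosomal protein genes on each of the 16 arrays, by population, with Sp1+/+ in grey and Sp1-/- in red. On the left, the deposited quantile normalized values keep all medians between 17.83 and 17.97, and on the right, scaling to the 75th percentile spreads them from 17.51 to 18.18.

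In Flk1+ cells few members differed between the genotypes. At an adjusted p of 0.05, 2 of 85 members rose (background 3.34% of all genes) and 1 fell (background 3.63%). The 2 were Rps4l and the testis-enriched paralog Rpl39l. The median log2 change of the members was 0.03, against 0.01 for all genes. For 74 of 75 core genes the 95% interval of the change lay within 1.5-fold in either direction. Intervals were computed on the deposited scale alone. The share of all genes, or of genes as bright, within that limit was not counted in this or the later populations. Without Sp1+/+ replicate 2 or without Sp1-/- replicate 1 no member passed, and without Sp1+/+ replicate 1 there was 1.

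In HE1, 2 members rose (background 4.35%), Rps4l and Rps23rg1, and 3 fell (background 5.48%), among them Rpl27 and Rps27l. Scaled to the 75th percentile, 1 rose and 0 fell, and the share of all genes on that scale is not given here. The median log2 change was 0.01, the same as over all genes, and the interval lay within 1.5-fold for 74 of 75 core genes. The count of members turned on single arrays. It rose without Sp1-/- HE1 replicate 1, with more members lower, and dropped without any 1 of the other HE1 arrays. The share of all genes passing after each omission is not given here.

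In HE2, 2 members rose (background 2.34%), again Rps4l and Rps23rg1, and 0 fell (background 3.33%) in limma. At an unadjusted p under 0.05, 7 were lower (background 9.4%). With the mean over all probes of a gene in place of the brightest, Rpl13 and Rpl23 were lower, with log2 changes of -0.31 and -0.28 (adjusted p = 0.0302 and 0.031). The interval lay within 1.5-fold for 74 of 75 core genes. The exception was the stalk gene Rplp2, at a log2 change of 0.40 with an interval of 0.13 to 0.68 (adjusted p = 0.0906). Its Sp1+/+ arrays read 18.34 and 17.90 and its Sp1-/- arrays 18.58 and 18.47, so that 1 low array carried the difference. The count of members was 1 without Sp1-/- replicate 1, without Sp1-/- replicate 2 or without Sp1+/+ replicate 2.

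In progenitors, 3 members rose (background 6.17%), Rps4l, Rpl39l and Rps23rg1, and 2 fell (background 6.93%), Rpl27 and Rps27l. Scaled to the 75th percentile, 2 rose and 0 fell, and the share of all genes on that scale is not given here. With the mean over all probes of a gene, Rpl23 was lower as well (log2 change -0.28, adjusted p = 0.0187). On that setting Rpl14 and Rpl22 were higher, by 0.28 and 0.23 (adjusted p = 0.0202 and 0.0374). The median log2 change was -0.005, against 0.02 for all genes, and 74 of 75 core genes had their interval within 1.5-fold, Rpl27 being the exception. The count was 2 without Sp1-/- progenitor replicate 1 and 3 without either Sp1+/+ replicate. Under the study's rule of p at most 0.01 with a change of at least 2-fold, Rps4l was the 1 member called in HE2 (background 1.95%) and again the 1 in progenitors (background 4.11%), with 0 called in Flk1+ cells (background 1.64%) and 0 in HE1 (background 2.1%).

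The change in progenitors was also compared with the change in Flk1+ cells directly. No member passed in either direction in limma (0 higher, background 2.21%, and 0 lower, background 2.9%), with 3 higher (background 8.69%) and 0 lower (background 9.17%) at an unadjusted p under 0.05, and 0 were called by the study's rule (background 3.82%). Rps4l came nearest, with a difference of 0.72 in log2 change (adjusted p = 0.0565).

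**Figure D2:**
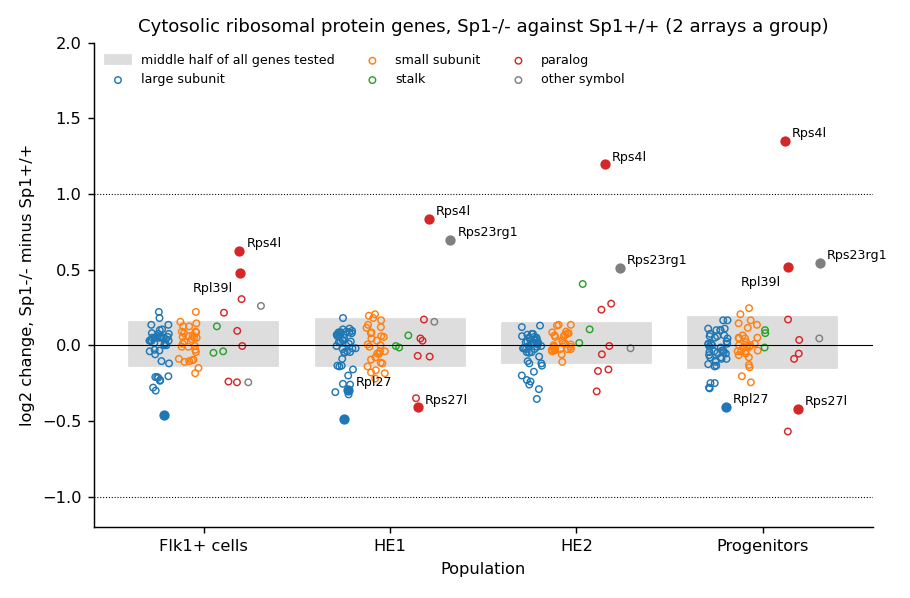
Log2 change between Sp1-/- and Sp1+/+ cells for each of the 85 members in the 4 populations, coloured by role, with filled points for members passing an adjusted p of 0.05, named where the text gives their values. Grey boxes mark the interquartile range of all genes tested and dotted lines a 2-fold change, which Rps4l alone passed, in HE2 and progenitors.

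Rps4l, which RefSeq lists as a transcribed pseudogene on chromosome 6 and which is a copy of Rps4x, was the member that changed most. In Flk1+ cells its single probe read 13.74 and 13.72 on the Sp1+/+ arrays and 14.51 and 14.20 on the Sp1-/- arrays. In HE1 it read 13.67 and 13.34 against 14.40 and 14.28. In HE2 it read 13.22 and 13.28 against 14.50 and 14.39. Each Sp1-/- array lay above both Sp1+/+ arrays of its population. In progenitors it read 13.35 and 13.57 against 14.89 and 14.73, again without overlap. The increase was 1.54-fold in Flk1+ cells (adjusted p = 0.0194) and 1.78-fold in HE1 (adjusted p = 0.00439). It reached 2.29-fold in HE2 (adjusted p = 0.000459) and 2.55-fold in progenitors (adjusted p = 9.72e-05). Over 14 alternatives its log2 change stayed between 1.14 and 1.25 in HE2 and between 1.24 and 1.46 in progenitors and passed in each (adjusted p at most 0.0303 and 0.005), while 8 of 14 passed in Flk1+ cells (adjusted p from 0.0164 to 0.353) and 12 of 14 in HE1 (adjusted p from 0.00355 to 0.168). The Flk1+ call was lost without either Sp1+/+ replicate or without Sp1-/- replicate 1. Rps4x, the X-linked gene that encodes the small subunit protein, was 1.09, 1.13, 1.05 and 1.15-fold higher in the Sp1-/- cells, with adjusted p from 0.189 to 0.787. Because the copies are near-identical, how far the Rps4l probe also reads Rps4x RNA cannot be told from these files.

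Rps23rg1 was the other member that rose in several populations. It read 9.22 and 9.21 in Sp1+/+ HE1 and 9.81 and 10.01 in Sp1-/- HE1, a 1.62-fold difference (adjusted p = 0.00386). In HE2 it read 9.48 and 9.25 against 9.85 and 9.90 (1.42-fold, adjusted p = 0.0210), and in progenitors 9.28 and 9.35 against 9.95 and 9.77 (1.46-fold, adjusted p = 0.00751). The groups did not overlap in any of these populations. In Flk1+ cells the values were 9.09 and 9.14 against 9.47 and 9.28, a 1.20-fold difference that did not pass (adjusted p = 0.214). The HE2 call was lost without Sp1+/+ replicate 2 or either Sp1-/- replicate, and the progenitor call without replicate 1 of either genotype. Rps23, its parent, had no matched probe, and how far the Rps23rg1 probe reads Rps23 RNA was not tested.

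Rpl39l was dim. No Sp1+/+ array, and no Sp1-/- array of HE1 or HE2, was well above background for it. In Sp1-/- Flk1+ cells it read 6.46 and 6.26, against 5.88 on both Sp1+/+ arrays, given as 1.31-fold higher (adjusted p = 0.00807). In Sp1-/- progenitors it read 6.53 and 6.64 against 6.03 and 6.10, 1.43-fold higher (adjusted p = 0.00253). These folds set the bright group against the lowest signal well above background on each array of the dim group, or the probe's own signal where higher. They are point values and not lower limits of the change. The interval of the log2 change was 0.29 to 0.67 in Flk1+ cells and 0.33 to 0.71 in progenitors. The size of the change depended on the background correction. The log2 change in Flk1+ cells was 0.48 on the deposited scale, 0.94 with a normexp offset of 16 and 2.93 under 75th percentile scaling. In progenitors the like values were 0.52, 0.91 and 3.33. The Flk1+ call was lost without Sp1+/+ replicate 2 or Sp1-/- replicate 1. Rpl39, its broadly expressed partner, had log2 changes of -0.10, -0.04, -0.08 and -0.04 in the 4 populations, and none passed.

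Rpl27, whose human gene is among those mutated in Diamond-Blackfan anemia, was lower in each population by a like amount. It read 17.99 and 18.07 in Sp1+/+ progenitors and 17.60 and 17.65 in Sp1-/- progenitors, a 1.32-fold difference (adjusted p = 0.00789). In HE1 it read 17.83 and 17.71 against 17.50 and 17.45 (1.23-fold, adjusted p = 0.0470). The arrays did not overlap in any population, and in Flk1+ cells and HE2 the differences of 1.21 and 1.22-fold had adjusted p of 0.0717 each. Its second probe gave log2 changes of -0.29, -0.28, -0.26 and -0.36 in the 4 populations, against -0.28, -0.30, -0.29 and -0.40 for the brightest probe. Under 75th percentile scaling its change in progenitors was -0.13 and did not pass (adjusted p = 0.647), and in HE1 the call held under 2 of 14 alternatives (adjusted p from 0.0454 to 0.547), and was lost whichever array was left out. Without Sp1+/+ replicate 2 or Sp1-/- replicate 1 the progenitor call was lost as well.

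Rps27l is a paralog of Rps27 and a known target of p53. It read 16.97 and 17.15 in Sp1+/+ HE1 against 16.77 and 16.53 in Sp1-/- HE1, 1.33-fold lower (adjusted p = 0.0328). In progenitors it read 17.17 and 17.22 against 16.77 and 16.78, 1.34-fold lower (adjusted p = 0.0224). The Sp1-/- arrays lay below the Sp1+/+ arrays in all 4 populations. Its change in progenitors was -0.00 on the 75th percentile scale, and leaving out any 1 progenitor array also ended that call. In HE1 the call was lost without either Sp1+/+ replicate or without Sp1-/- replicate 2. Rps27 had log2 changes of 0.02, 0.16, 0.06 and 0.14 in the 4 populations, none of which passed.

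**Figure D3:**
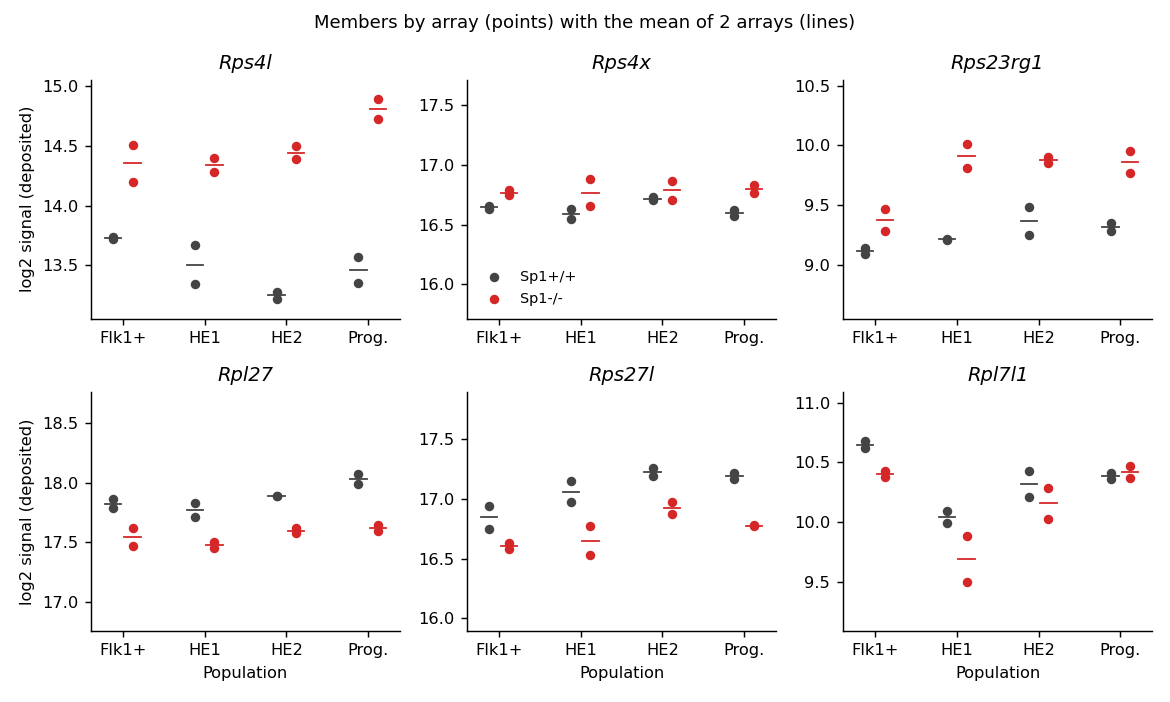
Deposited log2 signal of 6 members on each array (points) with the mean of 2 arrays (lines), Sp1+/+ in grey and Sp1-/- in red, over axes of equal length. Rps4l separates most, from 13.22 and 13.28 to 14.50 and 14.39 in HE2, Rpl27 and Rps27l lie lower in Sp1-/- cells by less, and Rpl7l1 is lowest in HE1 in both genotypes.

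Counting genes whose Sp1-/- and Sp1+/+ arrays did not overlap in the same direction in all 4 populations, 4 of 85 members were higher (background 4.43%), Rpl39l, Rps23rg1, Rps4l and Rps9. In the other direction 8 were lower (background 5.46%), among them Rpl13, Rpl19, Rpl23, Rpl26, Rpl27 and Rps27l.

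Genes known for roles of their own showed small differences. The stalk gene Rplp0, which anchors the protein arm that recruits translation factors, had changes between -0.04 and 0.02, with 95% intervals reaching from -0.19 to 0.17 at most. Its partner Rplp1 read 17.96 and 17.98 in Sp1+/+ HE2 and 18.06 and 18.09 in Sp1-/- HE2, a step without overlap that did not pass (adjusted p = 0.511). Rpl5 and Rpl11, which carry the 5S RNA and bind the p53 regulator MDM2, had changes of 0.10 and 0.08 in Flk1+ cells and -0.06 and -0.04 in progenitors. Rps19, the gene most often mutated in Diamond-Blackfan anemia, read 17.14 and 17.15 in Sp1+/+ Flk1+ cells and 16.96 on both Sp1-/- arrays (adjusted p = 0.241). In progenitors, the cells nearest to red cells here, Rps19 read 17.08 and 17.14 against 17.16 and 17.08, with overlap. Rpl38, known for its role in translation of Hox mRNAs, read 18.17 and 18.35 in Sp1+/+ HE2 and 18.05 and 18.12 in Sp1-/- HE2 (adjusted p = 0.362). The reference gene Rpl13a had changes between 0.06 and 0.08 in the 4 populations. Among the 19 members whose human gene is mutated in Diamond-Blackfan anemia, 0 passed in Flk1+ cells and HE2, and 1 (5.26%), Rpl27, was lower in HE1 and in progenitors, where 5.48% and 6.93% of all genes were lower.

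Other paralog pairs showed no passing change between the genotypes on the brightest probe of each gene. The second probe of Rpl22 did pass in Flk1+ cells, with a change of 0.46 (adjusted p = 0.0122), and so did the mean over both its probes in progenitors, with a change of 0.23 (adjusted p = 0.0374). Rpl22 and Rpl22l1 had changes of 0.16 and -0.09 in progenitors. Rpl7 and Rpl7l1 had changes of -0.05 and -0.35 in HE1, the latter with an adjusted p of 0.130. Rpl36a and Rpl36al had changes of 0.18 and -0.00 in Flk1+ cells. Rpl3l, a muscle paralog, read between 6.28 and 6.91 on the 16 arrays and was well above background on 15 of them, while Rpl3 had changes between 0.05 and 0.22. The testis paralog Rpl10l varied widely between replicates, from 6.15 to 7.23 in Sp1-/- HE1, and its change of -0.57 in progenitors had an interval of -1.19 to 0.05. Rpl10 read between 18.53 and 18.73 throughout. None of Rpsa, Fau and Rack1, subunit proteins whose symbols lie outside the rule, passed in any comparison.

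In Flk1+ cells the median log2 change was 0.035 for the 38 members with GGGCGG and 0.05 for the 26 without, and in progenitors 0.01 and -0.0075. These medians describe only the 64 members with a window. Among factors that bind the same element, Sp4 was 3.07, 2.58, 2.70 and 2.90-fold higher in the Sp1-/- cells of the 4 populations (adjusted p at most 0.000259), while Sp3 had changes between -0.31 and -0.02 and did not pass.

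Other lists of translation genes were counted in the same way. Of 48 genes of ribosome biogenesis and rRNA synthesis, 12 (25%) were lower and 0 higher in Sp1-/- Flk1+ cells, with a median change of -0.265. Of all genes 3.63% were lower and 3.34% higher there. The 75 core proteins had 1 lower and 0 higher with a median of 0.03. Of 78 mitochondrial ribosomal proteins, 10 (12.8%) were lower and 0 higher, with a median of -0.15. In progenitors the biogenesis list had 7 lower (14.6%) and 2 higher (4.17%) with a median of -0.02. The mitochondrial list had 8 lower (10.3%) and 6 higher (7.69%) with a median of 0.012. Of all genes 6.93% were lower and 6.17% higher in progenitors. Of 35 translation factors, at most 3 passed in any population. Those were in HE1, with 1 higher (2.86%, background 4.35%) and 2 lower (5.71%, background 5.48%), near the shares of all genes. The difference between lists was not tested.

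Between stages the members' medians lay between -0.055 and 0.09 on the deposited scale. On the 75th percentile scale they were -0.187, 0.271 and -0.079 for the successive steps of Sp1+/+ cells (all genes -0.108, 0.032 and -0.029), and 0.094, 0.09 and 0.212 for those of Sp1-/- cells (all genes 0.083, -0.051 and -0.005). The change of other genes as bright as the members was not summarised on that scale. From Flk1+ cells to HE1, 55 of 85 members had a negative change in Sp1+/+ cells, with a median of -0.035 (all genes -0.01), and so had 51.8% of all genes and 62.7% of all 1001 probes above 16 on the log2 scale, where most members lie. There 0 rose (background 11.2%) and 3 fell (background 13.6%). Among Sp1-/- samples 58 were negative with a median of -0.055, against 50.8% of all genes and 63.1% of those bright probes, while 1 rose (background 12.6%) and 2 fell (background 16%). From HE1 to HE2, 71 members had a positive change in Sp1+/+ cells with a median of 0.085 (all genes 0.015), as did 53.5% of all genes and 73.4% of bright probes, and 1 rose (background 5.67%) and 0 fell (background 5.02%). Among Sp1-/- samples 69 were positive with a median of 0.09, against 51.5% of all genes and 67.2% of bright probes, 3 rose (background 10.5%) and 0 fell (background 8.06%). From HE2 to progenitors the medians were 0.015 and 0. No member passed there in Sp1+/+ cells in limma (background 1.68% higher and 1.35% lower), where 2 were higher at an unadjusted p under 0.05 (background 6.86%), and in Sp1-/- cells 1 rose (background 7.37%), Rpl39l, and 0 fell (background 7.97%). The first and second steps share the HE1 arrays, so that a low HE1 reading enters both.

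Rpl7l1, a paralog of Rpl7, had the largest stage change among members that passed. In Sp1+/+ cells it read 10.68 and 10.62 in Flk1+ cells and 9.99 and 10.09 in HE1, 1.53-fold lower (adjusted p = 0.00518). Its Sp1-/- values were 10.38 and 10.43 and then 9.88 and 9.50, 1.64-fold lower (adjusted p = 0.00172). The stages did not overlap in either genotype. In Sp1-/- HE2 it read 10.29 and 10.03, 1.39-fold above HE1 (adjusted p = 0.0296), and the like step in Sp1+/+ cells, to 10.43 and 10.21, did not pass (adjusted p = 0.258). Rpl7 itself had changes of -0.16 and -0.24 from Flk1+ cells to HE1 and did not pass.

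Rps19bp1 fell 1.41-fold from Flk1+ cells to HE1 in Sp1+/+ cells, from 13.03 and 13.14 to 12.56 and 12.61 (adjusted p = 0.00110), and rose 1.27-fold to 12.95 and 12.90 in HE2 (adjusted p = 0.0265). In Sp1-/- cells it read 12.84 on both Flk1+ arrays and 12.66 and 12.82 in HE1, a change of -0.10 (adjusted p = 0.447). Rpl22 of the large subunit fell from 17.32 and 17.37 to 17.00 and 17.10 in Sp1+/+ cells (adjusted p = 0.0210). In Sp1-/- cells Rpl5 fell from 16.74 and 16.76 to 16.54 and 16.39 (adjusted p = 0.0232), and Rps23rg1 rose 1.45-fold (adjusted p = 0.00342). From HE1 to HE2 in Sp1-/- cells the large subunit genes Rpl28 and Rpl21 rose 1.26 and 1.39-fold (adjusted p = 0.0221 and 0.0113). Here too 1 array mattered. The counts of members for the steps into and out of Sp1-/- HE1 rose without Sp1-/- HE1 replicate 1, an omission for which the share of all genes is not given. The count for the step out of HE1 dropped without Sp1-/- HE1 replicate 2 or Sp1-/- HE2 replicate 1. The call for Rpl22 was lost without Sp1+/+ HE1 replicate 1 or either Flk1+ replicate, and that for Rpl5 without either Sp1-/- Flk1+ replicate or HE1 replicate 2. Into Sp1-/- HE2, Rpl21 and Rpl7l1 no longer passed without HE2 replicate 1 or HE1 replicate 2, nor did Rpl28 without replicate 2 of either stage. The rise of Rps19bp1 into Sp1+/+ HE2 no longer passed whichever of its 4 arrays was left out. The same held for the 1.27-fold rise of Rpl39l from Sp1-/- HE2 to progenitors (adjusted p = 0.0206). The interval of that log2 change was 0.16 to 0.54.

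Most biogenesis genes fell into HE1 and many rose into HE2. From Flk1+ cells to HE1, Sp1+/+ cells showed 41 of 48 lower (85.4%, background 13.6%) and 0 higher with a median of -0.772. Sp1-/- cells showed 37 lower (77.1%, background 16%) and 0 higher with a median of -0.648. From HE1 to HE2, 20 were higher (41.7%, background 5.67%) and 1 lower in Sp1+/+ cells. The like counts in Sp1-/- cells were 30 (62.5%, background 10.5%) and 0. Ncl, the nucleolar protein nucleolin, fell 2.11-fold and 1.87-fold and then rose 1.80-fold and 1.81-fold in the same order of genotypes (adjusted p at most 0.0357). The mitochondrial list had 34 lower (43.6%, background 13.6%) and 4 higher (5.13%, background 11.2%) in Sp1+/+ HE1 than in Flk1+ cells. In HE2 37 were then higher (47.4%, background 5.67%) and 2 lower (2.56%, background 5.02%). Myc, which drives ribosome production in growing cells, was 4.21-fold lower in HE1 than in Flk1+ cells in Sp1+/+ cells (adjusted p = 0.000155) and 2.72-fold lower in Sp1-/- cells (adjusted p = 0.00177). Mycn was 2.89-fold lower in Sp1-/- than in Sp1+/+ progenitors (adjusted p = 0.000565), where the 75 core proteins had a median change of -0.01. Any link of Myc or Mycn to the changes of these lists was not tested.

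**Figure D4:**
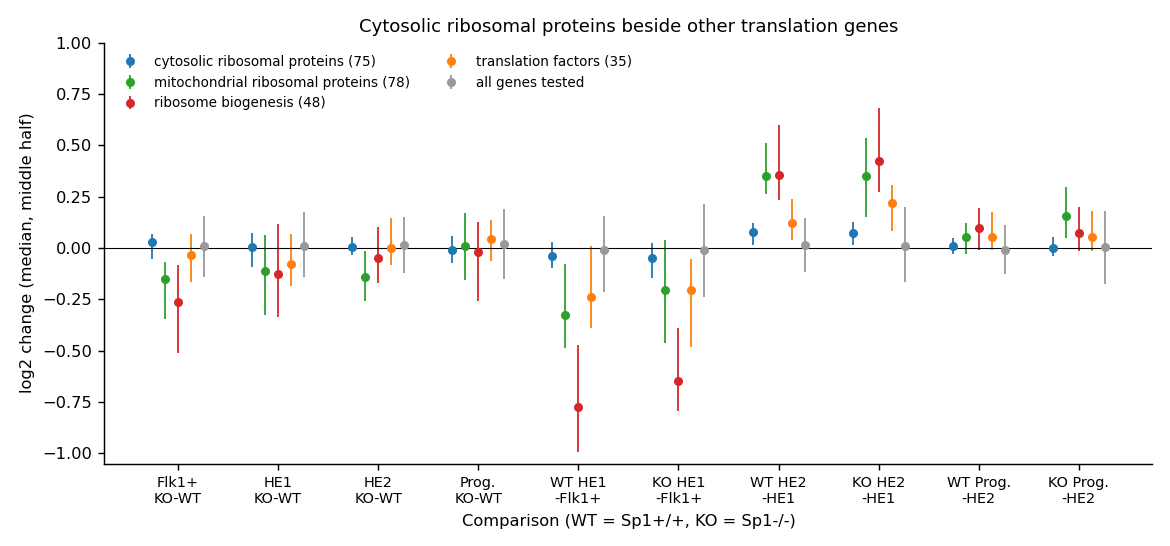
Median log2 change (points) with the interquartile range (bars) for 75 core cytosolic ribosomal proteins and 3 other lists, beside all genes tested, in the 4 genotype and 6 stage comparisons. On the brightest probe of each gene, the core proteins stay near 0 in each, while the biogenesis list reaches -0.772 from Flk1+ cells to HE1 in Sp1+/+ cells. For that step the 21 core probes between 8 and 16 on the log2 scale had a median of -0.50.

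Many of these genes also had a dimmer probe, and its stage changes were wider. The 75 core genes had 158 probes past the intensity minimum, of which 133 averaged above 16 on the log2 scale, 21 probes of 19 genes lay between 8 and 16, and 4 lay below. These limits were set after the values were seen. From Flk1+ cells to HE1 in Sp1+/+ cells, 21 of the 21 middle probes had a negative change with a median of -0.50, against -0.05 for the 133 bright probes and -0.06 for all 19291 probes of middle brightness. From HE1 to HE2, 21 of 21 were positive with a median of 0.32, against 0.07 for the bright core probes and 0.06 for all middle probes. The middle probes of Sp1-/- cells had medians of -0.37 (18 of 21 negative) and 0.36 (20 of 21 positive). All 1001 probes above 16 had medians of -0.04 and 0.06 for the same Sp1+/+ steps.

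When every probe was fitted on its own, 11 of the 21 fell into HE1 in Sp1+/+ cells (background 11.8% of all probes) and 10 in Sp1-/- cells (background 14.1%), with 0 higher in each. Into HE2, 6 rose in Sp1+/+ cells (background 4.67%) and 8 in Sp1-/- cells (background 8.93%), with 0 lower. These backgrounds cover probes of every brightness, and the share called among the 19291 probes of middle brightness alone was not counted. The second Rpl22 probe, for a large subunit protein, read 13.71 and 13.50 in Sp1+/+ Flk1+ cells, then 12.62 and 12.66 at HE1, then 13.19 and 13.07 at HE2. In Sp1-/- cells it read 14.11 and 14.02, then 12.85 and 12.94, then 13.26 and 13.27. HE1 lay below both neighbouring stages in each genotype without overlap, with log2 changes of -0.97 and -1.17 from Flk1+ cells (adjusted p = 1.54e-05 and 3.54e-06). The second Rpl14 probe, also for a large subunit protein, read 12.64 and 12.67, then 11.76 and 11.89, then 12.50 and 12.55 in Sp1+/+ cells. In Sp1-/- cells it read 12.66 and 12.46, then 12.3 on both arrays, then 12.76 and 12.83. Its log2 change into HE1 was -0.83 in Sp1+/+ cells (adjusted p = 6.16e-05) and -0.26 in Sp1-/- cells, which did not pass (adjusted p = 0.0638). The brightest probes of Rpl22 and Rpl14 had changes of -0.30 and -0.06 from Flk1+ cells to HE1 in Sp1+/+ cells. Which transcripts the dimmer probes bind is not given in the sources used here, and the part of signal brightness in this difference was not tested. Averaging all probes of a gene in place of the brightest gave 11 members lower into HE1 (background 14.2%) and 9 higher into HE2 (background 6.2%) in Sp1+/+ cells, against 3 and 1 on the brightest probe.

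**Figure D5:**
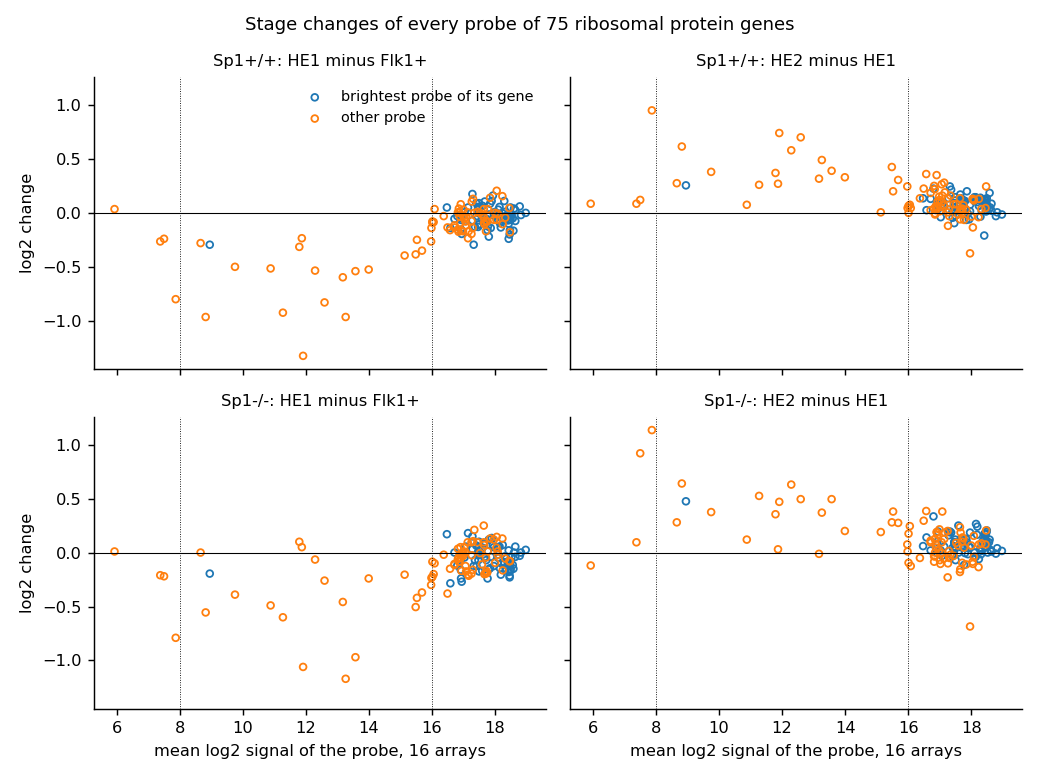
Log2 change between stages against the mean log2 signal for each of 158 probes of 75 core ribosomal protein genes, with Sp1+/+ cells above and Sp1-/- cells below, and dotted lines at 8 and 16. Bright probes cluster near 0, while in Sp1+/+ cells all 21 probes between the lines lie lower in HE1 than in Flk1+ cells, with a median of -0.50, and higher again in HE2.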

How the data were processed

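Total RNA labelled with Cy3 was hybridised to 16 one-colour Agilent arrays, 2 for each of 8 groups, and scanned intensities were extracted by the authors with Agilent Feature Extraction (10.7.1.1 per the processing notes, 10.7.3.1 per the file headers). The authors' deposited log2 values were background-corrected with normexp and quantile normalized in limma. An offset of 16 is stated, whereas recomputing the values from the scanner intensities gave them to within 0.0258 with an offset of 50 and to within 1.63 with 16. Duplicate spots were averaged, control spots were left out, and RefSeq accessions were matched to symbols for 20869 of 22232 RefSeq targets. Each gene was represented by its brightest probe. Genes with a log2 value of at least 6 on at least 1 array were kept, which left 37154.

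A linear model with a term for each of the 8 groups was fitted in limma 3.58.1 (R 4.3.3) on the deposited log2 values of all groups, with empirical Bayes moderation and Benjamini-Hochberg adjustment over all genes tested. A member was called at an adjusted p of 0.05, and folds are on the deposited scale, whose offset makes changes of dim probes smaller. Every p in the text is from these limma models, including the fit of all 55595 probes past the minimum. The methods' rule (p at most 0.01, 2-fold) was counted beside it. Intervals are 95% from the same model. Array values carry no read depth, so precision is limited by 2 arrays a group. The members and gene lists were chosen with earlier results of these data known. Named were members passing in each comparison (the 5 largest rises and falls in each population, the 3 in each step), the stalk and 5S genes, Rps19, Rpl38, Rpl13a, 8 paralog pairs and the Sp and Myc genes. Other names were chosen after their values were seen. The scripts were tested on simulated data. Alternatives were another offset, no background correction, processed signals scaled to the 75th percentile, no intensity minimum, probes well above background, the mean over probes, a replicate block, arrays of the comparison alone, an adjusted p of 0.01, and each array left out. Promoter windows came from RefSeq (GRCm38.p6), and where a gene had several the first was used. Some genes that enter the counts are not reported by name here.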

Additional observations from a re-analysis of the deposited data

How the results depend on the processing

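The counts of members passing an adjusted p of 0.05 were small, so that single genes moved them by more than 1.5 times, and the cause was not tested. Except where a background is printed, the share of all genes passing under an alternative is not given. These counts therefore show how steady the calls were and are not a result about the members. With the normexp offset of 16 and with no background correction, 3 members passed in HE1 and 0 from HE1 to HE2 in Sp1+/+ cells. With 75th percentile scaling, 1 passed in HE1, 2 in progenitors, 0 from HE1 to HE2 in Sp1+/+ cells and 1 in Sp1-/- cells. With the mean over probes, 4 passed in HE2 (2 higher and 2 lower) and 8 in progenitors (5 higher and 3 lower). From Flk1+ cells to HE1, 11 passed in Sp1+/+ cells, all lower (background 14.2%), and 13 in Sp1-/- cells (1 higher and 12 lower). From HE1 to HE2, 9 passed in Sp1+/+ cells, all higher (background 6.2%), and 8 in Sp1-/- cells, all higher. On the same setting 2 passed from HE2 to progenitors in Sp1-/- cells. In the comparison of the change in progenitors with that in Flk1+ cells 1 passed, Rps4l. With the arrays of each comparison alone, which leaves fewer samples, 0 passed in Flk1+ cells, 0 in HE1, 1 in HE2, 0 from HE1 to HE2 in Sp1+/+ cells, 0 from Flk1+ cells to HE1 in Sp1-/- cells and 0 from HE1 to HE2 there. At an adjusted p of 0.01, 1 passed in Flk1+ cells, 2 in HE1, 1 in HE2, 0 from HE1 to HE2 in Sp1+/+ cells, and 0 in both later steps of Sp1-/- cells.

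Leaving out 1 array gave 0 to 2 members for Flk1+ cells, 2 to 10 for HE1 and 1 to 3 for HE2, while progenitors had 2 to 4. For the stages it gave 2 to 3, 0 to 1 and 0 to 1 in Sp1+/+ cells, 3 to 8, 1 to 8 and 0 in Sp1-/- cells, and 0 for the difference between progenitors and Flk1+ cells. The numbers 1 and 2 were not taken to pair the samples in the main model. Deviations of same-numbered samples correlated at -0.173 to 0.503, and above 0.1 in 11 of 28 pairs of groups. The highest was that of Sp1+/+ HE1 with HE2, and the labels do not say whether those came from the same cultures. Replicate 1 lay on slide row 1 and replicate 2 on row 2 in every group. The replicate block gave 5 members from Flk1+ cells to HE1 in Sp1+/+ cells and 1 for the difference between progenitors and Flk1+ cells, and the other counts stayed within 1.5 times.

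Of 364 alternative values of the 26 calls of named members, 253 kept direction and call, 111 kept direction without passing, and 0 turned. Under each alternative run, 5 calls passed: Rps4l in HE2 and progenitors, Rpl39l in progenitors, and Rpl7l1 and Rps19bp1 from Flk1+ cells to HE1 in Sp1+/+ cells. The medians of the 21 middle-brightness probes lay between -0.52 and -0.46 into HE1 and between 0.28 and 0.44 into HE2 in Sp1+/+ cells, under 6 alternatives chosen after seeing the data, and between -0.40 and -0.26 and between 0.25 and 0.51 in Sp1-/- cells.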

Other observations

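Between genotypes, the 21 core probes of middle brightness had a median log2 change of -0.15 in Flk1+ cells, with 14 of 21 negative, and of 0.15 in progenitors, with 15 of 21 positive. All probes of that brightness had medians of 0 and 0.02. Under 6 alternatives chosen after seeing the data the first median lay between -0.29 (75th percentile scaling) and -0.09 (without Sp1-/- Flk1+ replicate 2) and the second between 0.11 and 0.18. The second Rpl14 probe had a log2 change of 0.61 in progenitors (adjusted p = 0.00157, limma), while probes above 16 had medians of 0.02 and 0.01 in those populations. Over all 84 further probes of the members, the sign was that of the brightest probe in 57 for Flk1+ cells, 56 for HE1, 63 for HE2 and 49 for progenitors.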
